A study of Mus musculus with 42 samples.

Results

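The genes described here are 8 core hepatocyte genes and factors out of 47729 annotated genes: the plasma proteins Alb, Ttr and Ahsg, the fatty acid carrier Fabp1, the tyrosine-degrading enzymes Tat and Hpd, the surface receptor Asgr1 and the transcription factor Hnf4a. They were chosen by name, as genes that hepatocytes are known to express, with earlier results of these data known. Their level after RiboTag immunoprecipitation (IP) was set against the level in the whole liver RNA of the same mouse (input), and the share of the input level left in the IP was taken as the measure. In all 7 library protocols the mean level of each gene was lower in the IP, with replicate 3 exchanged in 4 of them. In NuG, Asgr1 in mouse 1 and Hnf4a in mice 2 and 3 stood at 116.3%, 100.8% and 110.4% of the input. The summed level of the 8 genes was 16.1% to 22.5% of the input in 6 protocols and 41.7% in the seventh, NuG. Sums were taken in CPM, and in RPKM for SMTer, as defined below. With fractions as labelled, the mean over mice of the summed level was 105.9% to 193.4% in the 4 protocols with exchanged libraries. These means include the turned-over ratio of mouse 3, and the medians over mice ran from 16.6% in Tru4 to 42.8% in NuG. The NuG value of 41.7% moved with the scaling, to 19.7% without mitochondrial counts and 14.0% with TMM-scaled CPM.

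All 42 libraries were made from livers of 3 untreated Gfi1Cre/+;Rpl22HA/HA mice, so inputs and IPs carry the same alleles: Cre from the Gfi1 locus and, on both chromosomes, the Rpl22 allele that gives an HA-tagged ribosomal protein after Cre recombination. The growth protocol in the labels gives an age of 30 days after birth, whereas the stage label gives 1 day. RNA of the homogenate and RNA that came down with an HA antibody were each prepared as NEBNext Ultra Directional (NEB), NuGEN Ovation V2 (NuG), SMARTer Stranded Total RNA-Seq Pico (SMTer), SMART-Seq v4 (SMTseq4) and TruSeq v2 (Tru4) libraries from 4 ng, as SMART-Seq v4 libraries from 0.25 ng (SMTseq0.25) and as TruSeq libraries from 70 ng (Tru70), with 3 libraries per fraction and protocol. Because the protocols used RNA of the same 3 mice, they are repeated measurements of 3 animals and not independent experiments. Since recombination is permanent, the tag is passed on to the descendants of cells that once expressed Gfi1, so the IP is not limited to cells that express Gfi1 at sampling.

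Hepatocytes make up most of the liver's mass. They secrete albumin, transthyretin and other plasma proteins, clear desialylated glycoproteins through the asialoglycoprotein receptor, and break down amino acids such as tyrosine. The nuclear receptor HNF4A, together with C/EBP and FOXA factors, drives many of these genes. In a RiboTag experiment with a Cre line for another cell type, transcripts of untagged cells should be left behind on untagged ribosomes, and their remaining level is a common measure of carry-over.

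In 4 protocols (NEB, NuG, SMTer and Tru4) the fraction labels of replicate 3 were exchanged in the analysis. The study's own list of detected genes per library gives the number of the library labelled input to the IP, and the reverse, for these 8 libraries. The number of detected genes equalled that list in 34 of 42 libraries as labelled and in 42 of 42 after the exchange. The 8 genes followed the same division. In NEB they took 13% of the exon counts in the library labelled IP replicate 3 and 2.61% in the library labelled input replicate 3. In Tru4 these shares were 16.5% and 3.01%, in NuG 5.96% and 2.53%, and in SMTer 6.32% and 1.51%. The results below use the exchanged fractions and name the values as labelled where they rest on these libraries.

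**Figure D1:**
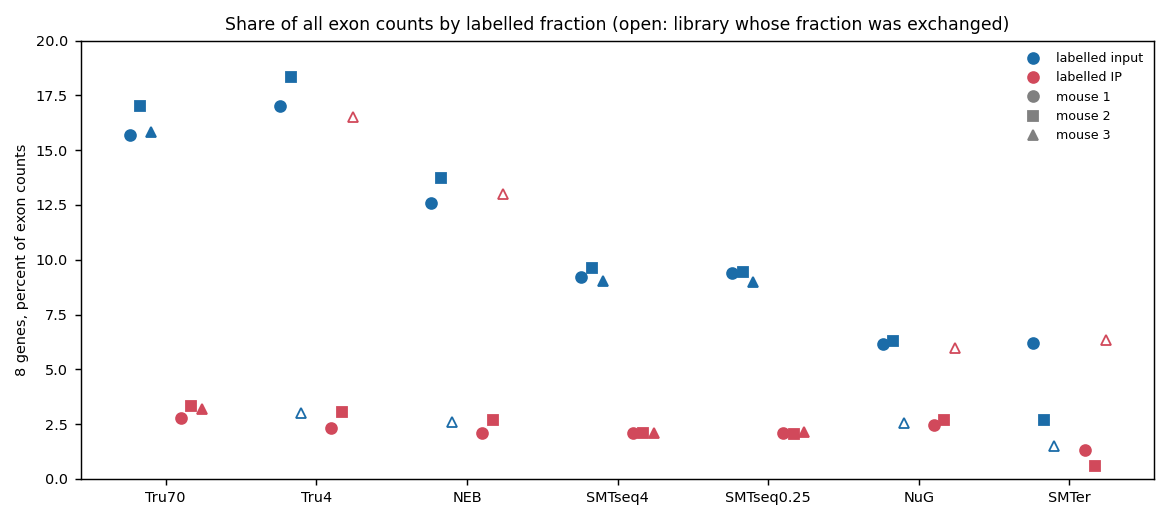
Share of all exon counts taken by the 8 genes (y axis, percent) in each of 42 libraries, by protocol (x axis). Blue and red give the labelled input and IP, symbols the mouse, and open symbols the 8 libraries whose fraction was exchanged; in Tru70, SMTseq4 and SMTseq0.25 labelled inputs and IPs do not overlap, whereas in the other protocols the open symbols sit with the opposite label.

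By the GENCODE M21 annotation of GRCm38, Alb lies at chr5:90460897-90476602 and Hpd at chr5:123171807-123182727 on chromosome 5. Fabp1 lies at chr6:71199827-71205023, Tat at chr8:109990437-109999803, Asgr1 at chr11:70054085-70057894, Ahsg at chr16:22891277-22899449 and Hnf4a at chr2:163506808-163572910. All 8 are protein-coding genes, and exon reads were counted. Hnf4a overlaps the antisense gene Hnf4aos, and Hpd lies within Psmd9 on the opposite strand. According to the study, only the SMTer kit gave strand-specific libraries, so in the other protocols reads of such pairs cannot be told apart where exons overlap.

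Promoter sequence is shown for 3 members as background, since factors of the hepatocyte network are known to bind near the starts of such genes. Promoter activity was not measured, and the comparison of IP with input does not bear on it. RefSeq promoter windows on GRCm38.p6 were matched for 7 of the 8 members. The 250 bases before each start were searched on both strands for GTTAAT, TTGCNNAA (C/EBP), CAAAGTCCA (HNF4), TGTTTAC (FOXA) and TATAAA. Sequence is given 5′ to 3′ on the plus strand, with matched letters in capitals; Alb is chr5:90460620-90460869, Fabp1 is cut before the first annotated base of the gene at chr6:71199629-71199826, and Hnf4a shows only the 30 bases round its pair of matches at chr2:163547066-163547095.
Alb: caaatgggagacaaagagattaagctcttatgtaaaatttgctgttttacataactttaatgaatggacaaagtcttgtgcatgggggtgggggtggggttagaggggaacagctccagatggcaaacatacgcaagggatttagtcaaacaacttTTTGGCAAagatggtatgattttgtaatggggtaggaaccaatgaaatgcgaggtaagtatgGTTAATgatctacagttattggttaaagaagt
Fabp1: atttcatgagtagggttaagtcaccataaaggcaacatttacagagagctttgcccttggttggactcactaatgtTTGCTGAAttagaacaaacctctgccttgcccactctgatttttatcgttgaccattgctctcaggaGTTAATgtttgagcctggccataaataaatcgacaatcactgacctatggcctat
Hnf4a: cgggggtgATTAACcATTAACtcctacccc

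GTTAAT was found in 3 of the 9 member windows, those of Alb, Fabp1 and the second Hnf4a start, and in 6.43% of all 32851 windows. In Hnf4a 2 copies on the minus strand stood next to each other, at 81 to 76 and 74 to 69 bases before the start. The C/EBP letters were found in 4 of 9 windows, those of Alb, Fabp1, Asgr1 and Ahsg, against 9.56% of all windows. TATAAA was found in 1 window, that of Fabp1, against 12.4% of all. The HNF4 and FOXA letters were in none of the 9 windows, and in 0.384% and 3.17% of all. These matches describe the letters and were not set against any binding data.

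Alb encodes albumin, the most abundant plasma protein, and was the member with the lowest share left in most pairs of fractions. In Tru70 the inputs of mice 1, 2 and 3 held 116499, 130444 and 124779 CPM (counts per 1000000 counts on genes), and the IPs 17175, 22725 and 22334 CPM. In SMTseq4 the inputs held 47849, 51573 and 48540 CPM and the IPs 9111, 9294 and 9651. Every IP was below every input in all 7 protocols. The IP kept 16.7% ± 1.70 (SD, n = 3 mice) of the input in Tru70 and 19.0% ± 0.932 in SMTseq4. Over the protocols this share ran from 14.1% in Tru4 to 39.9% in NuG.

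Ttr, on chromosome 18, encodes transthyretin, the carrier of thyroxine and retinol-binding protein. Its Tru70 inputs held 8486, 9489.9 and 9339.85 CPM against 3065, 2515 and 3063 CPM in the IPs. In SMTseq4 the values were 9716, 11281 and 12640.5 CPM in the inputs and 3177, 3306 and 3888 CPM in the IPs. No IP reached an input in any protocol. The share left was 31.8% ± 4.88 in Tru70 and 30.9% ± 1.70 in SMTseq4.

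Ahsg, which encodes the plasma glycoprotein fetuin A, had lower shares than Ttr in these protocols. In Tru70 it went from 23293, 21003 and 15400.3 CPM to 3668, 5902 and 4006 CPM, and in SMTseq4 from 19447, 19037 and 13307 CPM to 2437, 4497 and 2762 CPM. The share left was 23.3% ± 6.61 in Tru70 and 19.0% ± 5.76 in SMTseq4. Its order over mice was the same in each protocol: mouse 1 kept the least and mouse 2 the most in 7 of 7 protocols, for example 15.7% and 28.1% in Tru70.

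Fabp1, the fatty acid carrier of the hepatocyte cytoplasm, had Tru70 values of 5117, 4145 and 4450.3 CPM in the inputs and 2378, 1017.5 and 1262 CPM in the IPs. In SMTseq4 the inputs held 11889, 9811 and 11946 CPM and the IPs 5253, 2702 and 3519 CPM. The fractions did not overlap, but the IP of mouse 1 was the highest in 6 of 7 protocols and that of mouse 2 the lowest in 7 of 7. In Tru70 46.5% of the input level was left in mouse 1, 24.5% in mouse 2 and 28.4% in mouse 3.

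Tat catalyses the first step of tyrosine breakdown, and Hpd the second. Tat varied between mice in both fractions: in Tru70 the inputs held 767, 1981 and 1182 CPM and the IPs 204.0, 448.7 and 265.0 CPM. Mouse 1 was the lowest of 3 in 7 of 7 protocols in the input and again in 7 of 7 in the IP, and mouse 2 the highest in 6 of 7 in each. The share left differed less between mice, with 26.6%, 22.6% and 22.4% in Tru70. Hpd held 1698, 1710.0 and 1798 CPM in the Tru70 inputs and 429.6, 371.1 and 548.6 CPM in the IPs. In SMTseq4 it went from 1577, 1695 and 1800.2 CPM to 198, 282 and 318 CPM. Of its input, Hpd kept 25.8% ± 4.43 in Tru70 and 15.6% ± 2.69 in SMTseq4, and mouse 3 kept the most in 7 of 7 protocols.

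Asgr1 encodes the major subunit of the asialoglycoprotein receptor, and its share left was among the 2 highest of the 8 genes in 17 of 21 pairs. In Tru70 it held 690.1, 656.6 and 731.7 CPM in the inputs and 502.2, 238.4 and 353.6 CPM in the IPs, so that 72.8% was left in mouse 1, 36.3% in mouse 2 and 48.3% in mouse 3. In SMTseq4 the inputs held 729.5, 719.4 and 806.2 CPM and the IPs 336.2, 272.2 and 355.3 CPM, with 42.7% ± 4.30 left. The fractions did not overlap in 6 protocols, but they did in NuG, where the inputs held 186.2, 178.2 and 198.6 CPM and the IPs 216.5, 118.1 and 169.7 CPM.

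Hnf4a, the nuclear receptor that drives much of the hepatocyte program, was the member with the widest range of mean shares over protocols, from 32.2% in Tru70 to 97.6% in NuG, in CPM. The NuG end moved with the scaling: in the TMM-scaled edgeR fit 32.4% of the input was left there, and the highest fitted value was 72.1% in SMTer (limma). In Tru70 it held 515.5, 584.2 and 560.8 CPM in the inputs and 131.4, 180.1 and 225.2 CPM in the IPs, and 32.2% ± 7.43 was left. In SMTseq4 the inputs held 222.8, 143.0 and 167.5 CPM, the IPs 105.4, 92.2 and 119.4 CPM, and 61.1% ± 12.4 was left. In NuG the fractions overlapped, with 247.6, 210.9 and 209.6 CPM in the inputs and 201.9, 212.6 and 231.5 CPM in the IPs. The antisense gene Hnf4aos stayed at or below 2.68 CPM in the Tru70 libraries and 2.72 CPM in the SMTseq4 libraries.

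**Figure D2:**
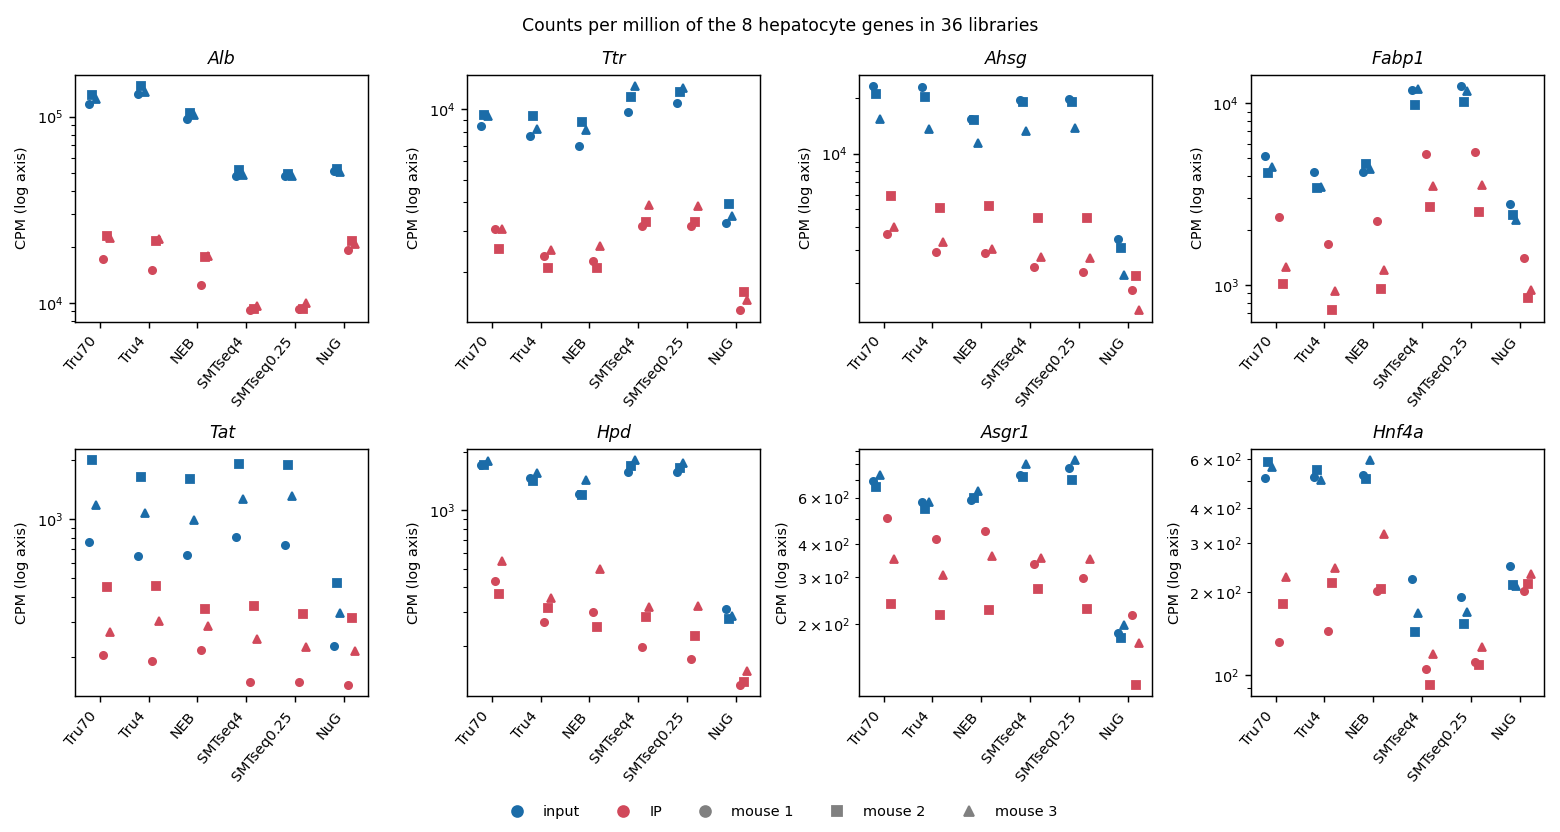
Level of each of the 8 genes in CPM on a log axis (y) in the 36 libraries of 6 protocols (x), with inputs in blue, IPs in red and a symbol per mouse, replicate 3 of NEB, NuG and Tru4 exchanged. All IPs lie below all inputs except for Tat, Asgr1 and Hnf4a in NuG; Tat is lowest in mouse 1 in both fractions.

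SMTer values were taken in RPKM (reads scaled to gene length and to all mapped reads), since its exon counts summed to 464199 to 762562 per library while 76.8% to 93.8% of counted reads fell on no feature. Alb had RPKM values of 1617, 882 and 1808 in the inputs of mice 1, 2 and 3 and 194, 156 and 364 in the IPs. Ttr had 185, 113 and 249 in the inputs and 32.2, 22.0 and 53.1 in the IPs. Both fractions were lowest in mouse 2, yet the IP of every mouse was below every input. Hnf4a had 3.56, 1.79 and 3.79 in the inputs and 1.59, 1.33 and 2.79 in the IPs, where the highest IP exceeded the lowest input. The other 5 members did not overlap.

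Compared per length, in CPM per kilobase of exon, Alb was the highest of the 8 genes in the Tru70 inputs with 52907 ± 2995 (SD, n = 3). Ahsg with 9057 ± 1848, Fabp1 with 8266 ± 899 and Ttr with 7677 ± 457 followed, and the ranges of neighbours among these 3 overlapped. Hpd, Tat and Asgr1 came next with means of 816, 545 and 435, again with overlapping neighbours, and Hnf4a was lowest at 115 ± 7.24. In the Tru70 IPs Alb was still highest at 8858 ± 1323 and Hnf4a lowest at 37.1 ± 9.72, but Asgr1 with a mean of 229 stood before Hpd with 211, their ranges overlapping. In the SMTseq4 IPs Fabp1 with 6916 ± 2356 stood above Alb with 3993 ± 117, and these ranges did not overlap.

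The high end of the order of shares recurred, while Fabp1, Ahsg and Tat each ranked from 1 to 7 of the 8 genes. Among the 21 pairs of fractions from 3 mice and 7 protocols, Alb had the lowest share of the 8 genes in 14 and Hpd in 4. The low end went with the kit: in SMTseq4 and SMTseq0.25 Alb ranked 2 to 4, and all 4 pairs with Hpd lowest were of these protocols. The highest share was that of Hnf4a in 12 pairs and of Asgr1 in 9, so one of these was highest in every pair. A level below 100% was found in 21 of 21 pairs for Alb, Ttr, Fabp1, Ahsg, Tat and Hpd, in 20 for Asgr1 and in 19 for Hnf4a, and the exceptions were all NuG libraries.

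**Figure D3:**
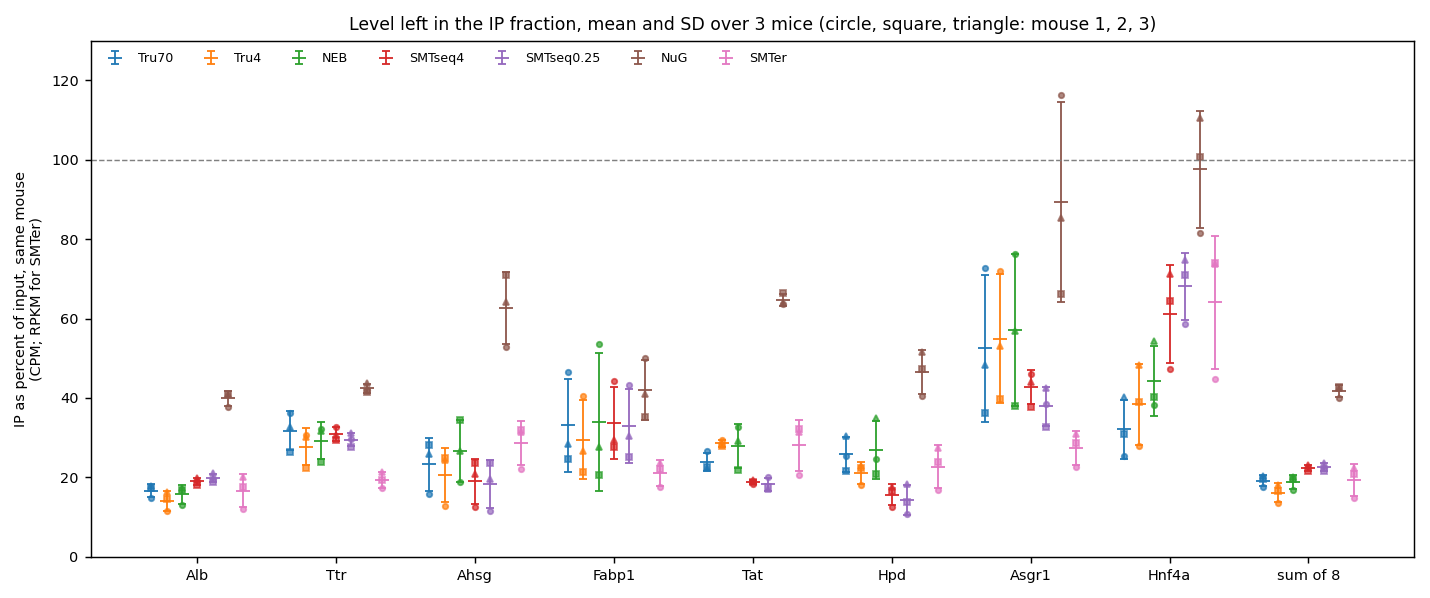
Level of each gene in the IP as a percent of the input of the same mouse (y axis), with the mean and SD over 3 mice and the single mice as symbols, in 7 protocols by colour; the last group is the sum of the 8 genes. On this scale NuG has the highest mean for each of the 8 genes, from 39.9% for Alb to 97.6% for Hnf4a, whereas in the TMM-scaled fits NuG has the lowest percent of input of 7 protocols for Ttr (14.2%) and Fabp1 (14.4%).

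In CPM, the summed level of the 8 genes left in the IP was 19.1% ± 1.42 of the input in Tru70, 16.1% ± 2.36 in Tru4 and 18.8% ± 1.84 in NEB. It was 22.4% ± 0.716 in SMTseq4 and 22.5% ± 0.980 in SMTseq0.25. In SMTer, measured in RPKM, it was 19.3% ± 3.92. NuG stood apart with 41.7% ± 1.58. In its inputs 57.6% to 59.0% of exon counts fell on 37 mitochondrially encoded genes, whereas in its IPs 9.23% to 15.6% did; in the inputs of the 5 other count protocols this was 3.21% to 7.81%. With CPM taken over counts outside mitochondrial genes, an alternative chosen after seeing the data, the share left was 19.7% ± 0.339 in NuG and between 15.1% and 21.8% in the 5 others. Without mouse 3, whose libraries were exchanged, the share was 18.2% in NEB, 41.4% in NuG, 15.1% in Tru4 and 17.9% in SMTer. With the fractions as labelled, the mean over mice was 178.1% in NEB, 105.9% in NuG, 193.4% in Tru4 and 161.5% in SMTer, where the ratio of mouse 3 is turned over.

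A share of CPM also moves with the other RNA in a library. Transcripts of the red cell markers took 12.9% to 22.6% of the exon counts in the Tru70 IPs and 0.156% to 0.251% in the inputs. With counts taken outside mitochondrial genes and these markers, 22.4% ± 0.383 of the members' level was left in Tru70 and 25.6% ± 0.988 in SMTseq4. The input and the IP of a pair came from the liver of the same mouse, so the share left compares fractions of the same tissue. It does not measure the number of hepatocytes or the RNA per hepatocyte.

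The fitted changes are relative to the bulk of genes, since TMM scaling (trimmed mean of M values) in edgeR put the median gene between -0.05 and 0.06 in the 6 count protocols. With edgeR's quasi-likelihood test and Benjamini-Hochberg adjustment, all 8 genes were lower in the IP in Tru70, Tru4, NEB, SMTseq4, SMTseq0.25 and NuG. Of all tested genes 16.7%, 24.2%, 5.34%, 28.7%, 17.1% and 20.9% were called lower in these protocols, and 18.1%, 25.9%, 5.82%, 30.4%, 19.8% and 24.0% higher. In SMTer, tested with limma on log2(RPKM + 1), 7 of 8 were lower against 6.99% of all tested genes (13.2% were called higher). The median change of the 8 genes was -2.23 in Tru70 (all 14707 tested genes: -0.03) and -2.60 in SMTseq4 (15091 tested genes: 0.01). With the fractions as labelled 0 of 8 genes were called in NEB, NuG, Tru4 (edgeR) and SMTer (limma), and 0 passed an unadjusted p under 0.05 in each of them. Without replicate 3, 5 of 8 were called in NEB, 8 in NuG, 7 in Tru4 and 4 in SMTer. Leaving out another mouse took more calls in NEB, with 3 of 8 called without mouse 2, and in SMTer, with 0 of 8 without mouse 1 (2 at an unadjusted p under 0.05, limma). Calls over all genes fell as well when 1 mouse was left out. Genes called lower then numbered 216 to 346 in NEB (646 with all mice) and 1911 to 2174 in NuG (2590). In Tru4 they numbered 2620 to 3785 (3845), and in SMTer 22 to 368 (390).

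Alb fell by 3.02 on the log2 scale in Tru70 (SE 0.20, adjusted p = 1.35e-05, edgeR), and over the protocols its change ran from -3.35 in Tru4 to -2.62 in SMTer. Hpd ran from -3.29 in SMTseq0.25 to -1.94 in SMTer, and Ahsg from -2.97 in SMTseq4 to -1.81 in SMTer. Tat, Ttr and Fabp1 had median changes of -2.39, -2.25 and -2.07 over the 7 protocols. Among the 7 members called in every protocol, Asgr1 had the least negative change in each, from -1.87 in SMTseq0.25 to -1.25 in NEB. Hnf4a was lower by 2.08 in Tru70 (log2 change -2.08, SE 0.20, adjusted p = 6.44e-05, edgeR), while in SMTer its change was -0.47 (SE 0.48, adjusted p = 0.553, limma). With upper quartile scaling Hnf4a was called in SMTer too (log2 change -0.42, adjusted p = 0.00853, limma).

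**Figure D4:**
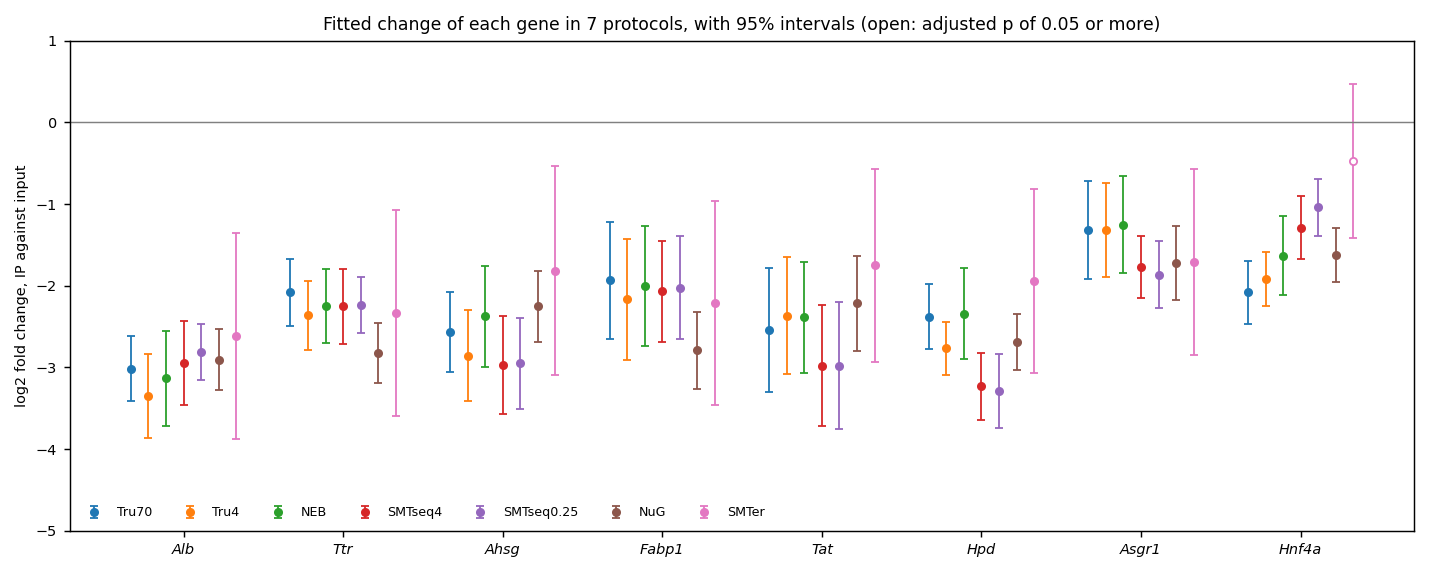
Fitted log2 fold change of IP against input (y axis) of each gene in 7 protocols by colour, with 95% intervals; filled points have an adjusted p under 0.05 (edgeR; limma for SMTer). All 56 points lie below 0, and the point of Hnf4a in SMTer is the only open one.

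Libraries were also compared without a model. All 8 genes had every IP below every input in CPM in Tru70, Tru4, NEB, SMTseq4 and SMTseq0.25, where 17%, 17.3%, 11.4%, 19.4% and 16.3% of tested genes did so. In NuG 5 of 8 did, against 3% of tested genes, and in SMTer 7 of 8 in RPKM against 10%. In NuG, where library totals without TMM factors put the median of all genes at 1.60, the fitted changes on that scale were -0.61 for Tat, -0.15 for Asgr1 and -0.04 for Hnf4a, none of which was called by edgeR (adjusted p = 0.0721, 0.527 and 0.828). The median of all genes shifted by 0.41 to 0.56 in the 5 other protocols on that scale, and there only Asgr1 in NEB lost its call (adjusted p = 0.104, edgeR).

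Whether the loss depended on the protocol was tested in 1 fit of all 36 count libraries, as the difference of the change from that in Tru70. The fit had no term for the mouse, so libraries of the same mouse counted as independent. Hnf4a was the only member called, in SMTseq0.25, where its change was less negative by 1.07 on the log2 scale (SE 0.25, adjusted p = 0.0353, edgeR), and 0.624% of 18582 genes were called in this direction and 0.0592% in the other. Of all genes 1.39% were called more and 2.82% less negative in NEB, 0.0700% and 0.0646% in NuG, and 0.0161% and 0.194% in SMTseq4, with 0 members among them in each. In SMTseq4 the difference of Hnf4a was 0.85 (95% interval 0.36 to 1.33, adjusted p = 0.160, edgeR). In NEB it was 0.50 (0.01 to 0.98, unadjusted p = 0.055, adjusted p = 0.323, edgeR), so the normal interval excluded 0 where the test did not reject. Both SMART-Seq v4 protocols were sequenced at another centre than Tru70, so the kit and the sequencing cannot be told apart. The Hnf4a call in SMTseq0.25 was lost when any 1 mouse was left out (adjusted p = 0.204, 0.292 and 0.336 without mice 1, 2 and 3, edgeR), and with no filter on low counts (adjusted p = 0.120).

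Hpd lay on the other side. Its change in SMTseq0.25 was more negative than in Tru70 by a log2 difference of -0.88 (95% interval -1.39 to -0.37, adjusted p = 0.0996, edgeR), and with the mouse as a replicate block this difference was called (adjusted p = 0.0173, edgeR). The differences of Alb from Tru70 were -0.07 in NEB, 0.15 in NuG, 0.24 in SMTseq0.25, 0.13 in SMTseq4 and -0.35 in Tru4, and none was called by edgeR; in SMTseq4 the 95% interval was -0.22 to 0.47. For Fabp1 and Tat, which varied between mice, the intervals were wider, from -1.06 to 1.05 and from -0.94 to 1.34 in NEB.

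The amount of RNA was compared within 1 kit. Between SMTseq0.25 and SMTseq4, which differ in input of 0.25 ng and 4 ng, the differences of the 8 genes ran from -0.12 for Asgr1 (95% interval -0.92 to 0.69) to 0.23 for Hnf4a (-0.26 to 0.72), and edgeR called 0 of 8 members and 0 of 18582 genes. Between Tru4 and Tru70 they ran from -0.40 for Hpd (-0.91 to 0.11) to 0.16 for Tat (-0.98 to 1.30). Again edgeR called 0 of 8 members and 0 of 18582 genes. According to the study, Tru4 and Tru70 also differ in size selection and PCR cycles, and Tru4 holds exchanged libraries. Differences within these intervals could not be told from 0.

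Other hepatocyte genes, taken from lists of known functions, are set beside the 8 members. Of 68 listed hepatocyte genes that are no members, 68 were tested in Tru70, 59 were called lower and 0 higher, with a median change of -2.22. In SMTseq4 59 of 68 were lower and 0 higher, in Tru4 61 of 68, in SMTseq0.25 56 of 68, in NuG 56 of 67, in NEB 47 of 67 and in SMTer 32 of 56, with 1 higher. The lists and the members were picked with earlier results known, and lists share genes with each other, so the counts are a description.

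Among 22 secreted plasma proteins 21 fell in Tru70, for example the fibrinogen chains Fgg by 2.87 and Fga by 2.72 on the log2 scale, and the lipoprotein component Apoc3 with -1.23. Transferrin (Trf) had -0.99 (adjusted p = 0.0622, edgeR), with 390.4, 241.1 and 348.4 CPM in the inputs and 320.1, 148.3 and 174.7 CPM in the IPs. All 6 enzymes of phenylalanine and tyrosine breakdown were lower, among them Fah, which ends the pathway, with a log2 change of -2.11, and Gstz1 with -1.86. All 5 urea cycle genes were lower, with Cps1, the entry enzyme, at -3.08, Otc at -2.34, Arg1 at -2.25, Asl at -2.22 and Ass1 at -2.15.

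Of 5 genes of glucose production 4 were lower, among them Fbp1 with -2.49 and Pcx with -2.21. G6pc, the last step, had a change of -0.03 (adjusted p = 0.968, edgeR), and its CPM was 338.4, 631.3 and 423.0 in the inputs and 294.7, 864.2 and 732.5 in the IPs. Pck1 had a change of -2.08 and ranged from 655.2 to 3084 CPM among the inputs. Of 10 surface receptors and transporters 9 were lower, with the bile acid transporter Slc10a1 at -4.03, Tfr2 at -2.80 and Abcc2 at -2.69, and Slco1b2, an organic anion carrier, at -1.84. The gene that did not pass, named after its values were seen, was Slco1a1 with 157.9, 52.64 and 9.78 CPM in the inputs.

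Hepatocyte transcription factors were lower in 12 of 15 in Tru70, in 11 in Tru4, 9 in SMTseq4, 8 in NuG, 7 in SMTseq0.25 and 5 in NEB, and in SMTer 1 of 9 tested was lower and 1 higher. In Tru70 the nuclear receptors Nr1i3, Ppara and Nr1h4 had changes of -3.77, -2.75 and -2.27. Foxa2 with -0.48 and Foxa1 with -0.11 did not pass (adjusted p = 0.566 and 0.884, edgeR), nor did Nr0b2, named after its values were seen (-2.14, adjusted p = 0.0788, edgeR). Of the zonal lists, 7 of 7 periportal genes were lower in Tru70, from Gls2 at -2.46 to Sds at -1.20, with Hal, Ass1 and Hsd17b13 between, and 4 of 7 pericentral genes were. In Tru4 7 of 7 of both lists were lower, in SMTseq4 7 of 7 and 6 of 7, and in NEB 4 of 7 and 3 of 6, and the difference between the lists was not tested. In Tru70 Cyp1a2 of the pericentral list had -3.11 and the glutamine synthetase Glul -0.52 (adjusted p = 0.0423, edgeR), while Slc1a2 with -0.58 did not pass. Rhbg and Lgr5 did not pass either, with input means of 3.27 and 5.74 CPM and IP means of 0.323 and 0.950 CPM.

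Relatives of Asgr1 and Fabp1 moved in both directions. Among galactose-binding lectins, the hepatocyte subunits Asgr1 and Asgr2 were lower in Tru70 (-1.32 and -2.23), whereas the macrophage lectins rose: Clec4f, the Kupffer cell receptor, from 147.6, 132.3 and 122.8 CPM to 6314, 8647 and 7533 CPM (log2 change 5.37). Clec10a and Mgl2 held at most 0.349 and 0.0296 CPM in the inputs and 23.6 to 30.1 and 2.94 to 8.83 CPM in the IPs. The second subunit, Asgr2, had 231.3, 221.9 and 214.4 CPM in the Tru70 inputs and 70.1, 62.2 and 57.4 CPM in the IPs. Of the fatty acid binding proteins Fabp2 (-2.44) and Fabp4 (-1.68) were lower, Fabp5 had -1.69 (adjusted p = 0.0997, edgeR), and Fabp7 rose from at most 3.88 CPM to 113.0, 150.9 and 146.5 CPM. Fabp3 and Fabp6 were at 0 counts in the Tru70 libraries. In each of the 6 other protocols Clec4f and Fabp7 were called higher and Asgr2 lower (edgeR; limma in SMTer).

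**Figure D5:**
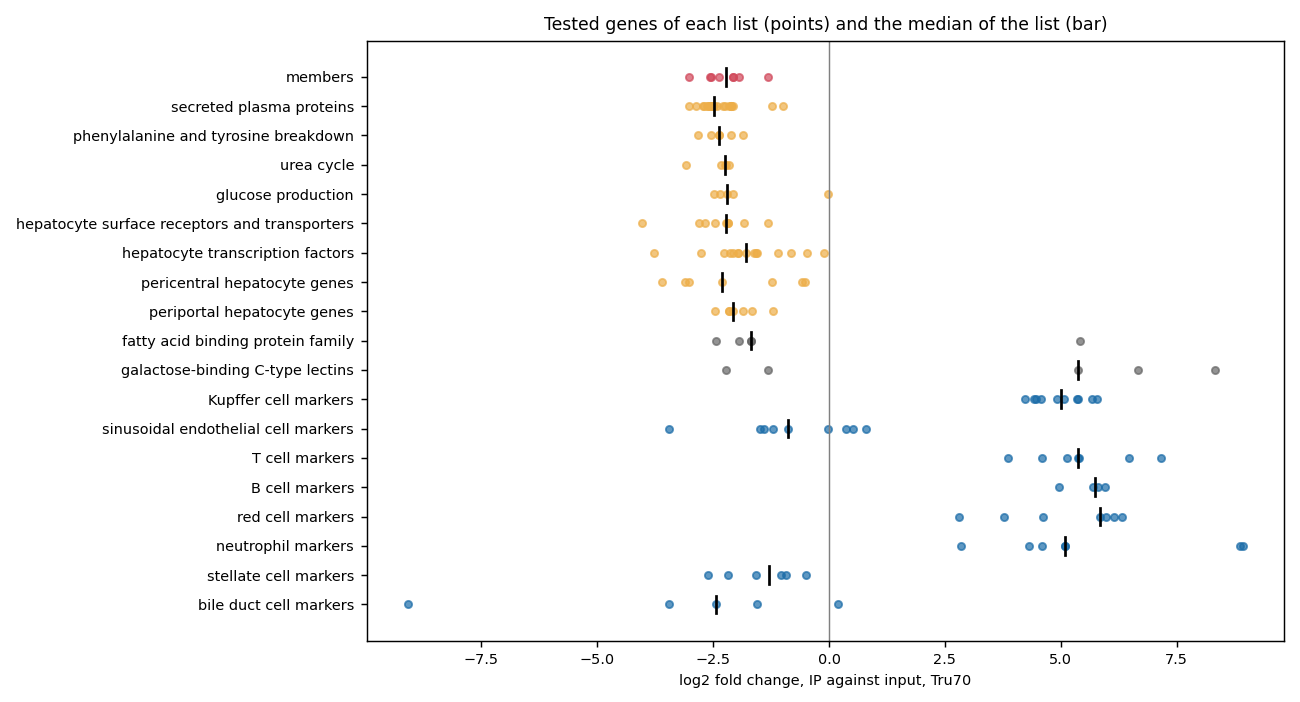
Fitted log2 fold change of IP against input in Tru70 (x axis) for the tested genes of each list (y axis), with a bar at the median of the list. Members and hepatocyte lists lie to the left of 0, with list medians from -2.49 to -1.79, while Kupffer cell markers lie to the right with a median of 4.99. Fitted changes of genes at or near 0 counts in 1 fraction, such as Mpo and Krt19, depend on the prior count and are no measure of size.

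Markers of other liver and blood cells were measured in the same libraries. In Tru70 10 of 10 Kupffer cell markers rose, their sum going from 460.4 to 537.4 CPM in the inputs to 19340 to 28190 CPM in the IPs. C1qa, Marco and Clec4f had the largest changes, of 5.77, 5.67 and 5.37. Of 7 red cell markers 6 rose, led by Hbb-bt, Hbb-bs and Hba-a1 with 6.31, 6.15 and 5.97. All 7 T cell markers rose, and Cd3d, Cd3g and Cd2 had the highest fitted changes with 7.15, 6.47 and 5.39. Their inputs held at most 0.36, 0.65 and 0.68 CPM, so the sizes of these changes depend on the prior count. The IPs held 16.6 to 33.0, 23.8 to 40.0 and 14.5 to 21.3 CPM. All 4 B cell markers rose too, with Cd79b at 5.94 and Cd79a at 5.70, from at most 1.82 and 1.07 CPM in the inputs. Of 7 tested neutrophil markers 4 rose, and the 3 with the highest changes were S100a8, Mpo and S100a9. Mpo was at 0 counts in all inputs and at 2.62, 1.34 and 2.60 CPM in the IPs, S100a8 went from at most 0.118 CPM to 36.5, 13.9 and 39.2 CPM, and S100a9 from at most 2.80 CPM to 134.0, 68.7 and 67.6 CPM.

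Of 6 stellate cell markers 4 were lower and 0 higher in Tru70, with Des, Lrat and Pdgfrb highest at -0.50, -0.92 and -1.03. Of 5 tested bile duct markers 2 were lower and 0 higher, with Epcam, Spp1 and Sox9 at 0.18, -1.55 and -2.44. Sinusoidal endothelial markers were lower in 4 of 9 and higher in 0, and Pecam1, Stab2 and Dnase1l3 had 0.80, 0.51 and 0.36 without passing the test. In SMTseq4 5 of 9 were lower and 3 higher, in SMTseq0.25 2 and 3, in NuG 6 and 1, in Tru4 5 and 1 (edgeR), while in NEB 9 of 9 did not pass. Gfi1 itself was at 0 counts in all 3 Tru70 inputs and at 0.968, 0.537 and 0 CPM in the IPs, and Rpl22 had a change of -0.03 (SE 0.32, adjusted p = 0.963, edgeR). The part of these cells' RNA in the share left of the hepatocyte genes was not tested.

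The genes whose levels followed the mean of the 8 members most closely over the 18 libraries of Tru70, SMTseq4 and SMTseq0.25 were Ambp, F2, Cat, 1300017J02Rik and Hrg, with Pearson's r from 0.991 to 0.994 among 8436 protein-coding genes. The 18 libraries fall into inputs and IPs of the same mice, so the points are not independent, and r is a description. Ambp, a plasma protease inhibitor, went from a mean of 2645 to 567 CPM in Tru70, and prothrombin (F2) from 2395 to 559 CPM. Catalase (Cat) went from 2579 to 663 CPM, 1300017J02Rik from 560.2 to 125 CPM, and the plasma protein Hrg from 868 to 126 CPM. Among the members themselves r with the mean was highest for Hpd at 0.982 and lowest for Fabp1 at 0.682 and Hnf4a at 0.683.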

How the data were processed

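Input and IP libraries of 3 mice were analysed in 7 protocols. The authors removed adapters, cut all reads to 1 length, aligned them to mm10 (GRCm38) with TopHat and deposited exon counts, unnormalized whole numbers for each Ensembl gene, made with HTSeq, which the study used to remove ambiguous and multiply mapped reads. The deposited RPKM values were scaled by the authors to gene length and mapped reads; in the 36 libraries other than SMTer they matched the whole gene with introns (ratio 0.926 to 1.02) and not the exons (4.63 to 6.14). The strand setting of the counting is not given in the sources used here, and SMART-Seq v4 libraries were sequenced at another centre than the rest. Reads on no feature, 3.18% to 27.6% outside SMTer, were left out. Totals were 3223153 to 45466334 counts outside SMTer and 464199 to 762562 in it, and 3 counts, taken as the floor, equal 0.0660 to 6.46 CPM over all libraries. The precision of RPKM is limited by the number of libraries.

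CPM was computed from the counts and their total per library. Counts were tested with edgeR 4.0.16 (TMM, filterByExpr, glmQLFit, glmQLFTest, no block) per protocol and in 1 fit for differences between protocols. RPKM of SMTer was tested with limma 3.58.1 on log2(RPKM + 1) for genes with an RPKM of at least 1 in at least 3 libraries, so its fold changes understate those of low genes. An adjusted p under 0.05 was called. For edgeR the SE was derived from the log2 change and its F statistic, and for limma it came from the fit. The 95% intervals use a normal quantile and are narrower than the tests imply. An interval can therefore exclude 0 where the test does not reject. The count tests and the limma test were checked on simulated data. P-values within a protocol rest on these 3 animals, with the input and IP of a mouse entered as independent. Those of differences between protocols also count libraries of the same mouse as independent.

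The names of the deposited data give 1 liver identifier per replicate number in both fractions and all protocols, so same-numbered libraries come from the same mouse. Deviations of input and IP from their group means correlated with 0.0227 to 0.457 over 18 pairs, 15 of them over 0.1, and 18 of 18 inputs correlated best with the IP of their own number.

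The members and lists were chosen with earlier results of these data known. Named genes are the 8 members, Gfi1, Rpl22, Asgr2, both gene families, the 3 lowest and 2 highest changes in Tru70 of each hepatocyte list, the 3 highest of each list of other cells, and the 5 protein-coding genes most like the mean of the members by Pearson's r of log2(CPM + 1) among genes with a mean of at least 10 CPM. A gene of 2 lists counts under both, and some genes that the rule names are not reported here. Hnf4aos, Psmd9, Slco1a1 and Nr0b2 were named after their values were seen. Alternatives were DESeq2 1.42.0, other scalings and filters, the replicate block, mice left out and fractions as labelled. Gene positions came from GENCODE M21, and promoter windows from RefSeq on GRCm38.p6. Protein sequences were not used here.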

Additional observations from a re-analysis of the deposited data

Results flagged for a closer look

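One result among the 8 genes differed between protocols by a test of the difference itself: the change of Hnf4a in SMTseq0.25 was less negative than in Tru70 by 1.07 on the log2 scale (95% interval 0.59 to 1.56, adjusted p = 0.0353, edgeR). In Tru70 25.5%, 30.8% and 40.2% of the input level was left in the IPs of mice 1, 2 and 3. In SMTseq0.25 it was 58.6%, 71.0% and 74.7%, in the same libraries that gave the call. The inputs differed in level too, with 515.5, 584.2 and 560.8 CPM in Tru70 and 190.8, 153.4 and 169.4 CPM in SMTseq0.25, whereas the IPs held 131.4, 180.1 and 225.2 CPM and 111.8, 108.9 and 126.5 CPM. Within the SMART-Seq v4 kit the change in SMTseq0.25 differed from that in SMTseq4 by 0.23 (95% interval -0.26 to 0.72, adjusted p = 1.0, edgeR), and SMTseq4 differed from Tru70 by 0.85 (0.36 to 1.33, adjusted p = 0.160, edgeR). The part of the kit and that of the sequencing centre cannot be told apart. Over the alternatives the difference ran from 1.002 to 1.133, and its adjusted p from 9.81e-04 (DESeq2) to 0.987 (edgeR, fractions as labelled). No library of these 2 protocols was exchanged, but the fit shares its dispersion with protocols that hold exchanged libraries.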

How the results depend on the processing

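All 8 genes had changes below 0 in every alternative fit of every protocol except Hnf4a in NuG, which was at 0.0205 with limma on log2(RPKM + 1). With library totals in place of TMM, 5 members and 36 hepatocyte genes (63 with TMM) were lower in NuG, and all genes called lower or higher numbered 328 and 9064 in NuG (2590 and 2979) and 414 and 1154 in NEB (646 and 704). On this scale 1483 genes were lower in SMTseq0.25, 2446 in SMTseq4, 1965 in Tru4 and 1460 in Tru70, against 2449, 4334, 3845 and 2458. DESeq2 called 1090 genes lower and 1520 higher in NEB. Limma on log2(RPKM + 1) called 461 genes and 35 hepatocyte genes lower in NuG, 1201 genes higher in SMTseq0.25 (2831) and 1296 in SMTseq4 (4594), 1644 lower and 2562 higher in Tru4 (3845 and 4105), and 1532 lower in Tru70. The cause was not tested.

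With fractions as labelled 0 members, 0 hepatocyte genes and 0 genes in either direction were called in NEB, NuG, Tru4 (edgeR) and SMTer (limma). In SMTer, where 390 genes were lower and 736 higher, limma without a filter called 0 members, 0 hepatocyte genes, 23 genes lower and 190 higher, while 7 members passed an unadjusted p under 0.05. Upper quartile scaling gave 1388 and 1660 and called 8 members, Hnf4a included (adjusted p = 0.00853, limma), and the replicate block, with the mouse as a term, 1204 and 1276. edgeR on the SMTer exon counts called 5 members.

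Of the differences from Tru70, 3 members were called in NuG with library totals (Alb, Ahsg and Hnf4a) and 1 with DESeq2. With library totals the median change of all genes was 1.60 in NuG and 0.41 in Tru70. The differences of the 8 members ran from 0.32 to 1.58 on that scale, so the calls include this shift of all genes. Shares of all genes called in these alternatives are not given here. In SMTseq0.25 0 were called with library totals, without a filter and as labelled, 2 with DESeq2 and 2 with the replicate block, and in SMTseq4 1 with DESeq2. The replicate block changed no other call of a member.

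The share left, in percent, was 13.7 in NEB, 14.0 in NuG, 16.2 in SMTseq0.25, 15.4 in SMTseq4, 11.3 in Tru4 and 14.2 in Tru70 with TMM-scaled CPM, and in RPKM 33.0 in NuG, 14.6 in SMTseq0.25 and 14.8 in SMTseq4. As labelled the share left was 178.1 in NEB, 105.9 in NuG, 193.4 in Tru4 and 161.5 in SMTer, as a mean over mice with the ratio of mouse 3 turned over. Without mitochondrial counts it was 19.7 in NuG, and without red cell markers too 20.2 in NuG, 25.8 in SMTseq0.25, 25.6 in SMTseq4 and 22.4 in Tru70; these 2 scalings were chosen after seeing the data.

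Leaving out 1 mouse at a time left 3 to 6 members, 30 to 46 hepatocyte genes, 216 to 346 lower and 215 to 358 higher genes in NEB, with 6, 3 and 5 members without mice 1, 2 and 3. In SMTer it left 0 to 7 members, 0 to 38 hepatocyte genes, 22 to 368 lower and 29 to 244 higher genes, with 0 members without mouse 1 (2 at an unadjusted p under 0.05, limma) and 4 without mouse 3. In Tru70 1316 to 2066 genes were lower and 1561 to 2467 higher, and Asgr1 was not called without mouse 2 (adjusted p = 0.0698, edgeR), nor Asgr1 and Fabp1 without mouse 3 (0.118 and 0.0613). Asgr1 in Tru4 was not called without mouse 3 (adjusted p = 0.0575, edgeR). For the difference of SMTseq0.25 from Tru70 the range was 0 to 0. In NuG, SMTseq4 and SMTseq0.25 all 8 members stayed called. SMTer had the lowest totals on exons.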
